A study of Mus musculus with 2 samples.

Results

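The neurons of the deep layers of the cerebral cortex, layers 5 and 6, were followed through 10 genes that mark or specify them, listed by symbol: Fezf2, Bcl11b, Tbr1, Sox5, Tle4, Foxp2, Zfpm2, Ldb2, Syt6 and Hs3st4. All 10 were found among the 55536 annotated genes of the deposited gene tables. Left cerebral cortex was taken at the age of 4 days from male mice of the strain B6CASTF1/J, an F1 hybrid of the C57BL/6 and CAST strains. Total RNA gave 2 libraries, replicate 2 and replicate 1, each made from 300 ng of RNA after ribosomal RNA had been reduced, with ERCC spike-ins, synthetic RNAs of known amount, added. Both libraries belong to 1 group with no treatment, mutation or second tissue, so the data give levels and the spread between libraries and no contrast between conditions. The labels list separate males and tissue entries for the libraries but 1 donor entry for both, so a p-value here compares these 2 libraries only and may hold technical spread.

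Projection neurons of the deep layers send axons out of the cortex. Layer 5 subcerebral neurons reach the brainstem and spinal cord, and layer 6 corticothalamic neurons reach the thalamus. In mouse cortex their identities are set by transcription factors that act against each other: Fezf2 promotes subcerebral identity with Bcl11b (also called Ctip2) acting downstream, and Tbr1 promotes corticothalamic identity and represses Fezf2. Several of these genes are also used elsewhere, Bcl11b and Foxp2 in striatal neurons, Bcl11b in interneurons, Tbr1 in output neurons of the olfactory bulb and in Cajal-Retzius cells, Foxp2 in thalamus and Sox5 in glial precursors.

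Depth was 29511737 expected counts for replicate 2 and 26897687 for replicate 1, of which spike-ins took 0.351% and 0.323%. Levels are given as TPM, which set a gene's reads per length against all transcripts of the library. A gene counted as detected at 1 TPM or more in each library, which 13084 of 22028 protein-coding genes reached, with a median of 17.62 TPM. All 10 genes were detected, with a median of 28.4 TPM, and 7 of them stood above the median detected protein-coding gene. Syt6, Foxp2 and Zfpm2 stood below it. The whole span of mean levels was 7.43-fold, with Sox5 at the top and Zfpm2 at the bottom. In bulk tissue, a lower level can come from fewer cells of a type or from less RNA per cell, and these cannot be told apart.

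Ratios between the libraries are log2 of replicate 2 over replicate 1, from expected counts scaled by TMM, a scaling to the bulk of the genes, and tested with a two-sided exact binomial test adjusted by Benjamini-Hochberg over 20365 genes with 10 or more counts. This test called 26.1% of those genes, 13.7% higher and 12.4% lower in replicate 2, and among 7956 protein-coding genes with 1000 or more counts it called 43.9%, 26.6% higher and 17.3% lower. Of the 10 genes it called 6, of which 4 were higher in replicate 2 (Syt6, Foxp2, Hs3st4 and Bcl11b) and 2 were lower (Sox5 and Fezf2). Each member had at least 1000 counts over the libraries, so the second background is the nearer one, and no test of the members' share against it was run. The median ratio of the 10 genes was 0.02, against 0.03 for those 7956 genes, whose ratios had an SD of 0.179. Scaling to the ERCC spike-ins in place of TMM called 33.7% of the 20365 genes, the background for every count under spike-in scaling below. It moved the median of all tested genes to -0.15, and with it 2 members were called higher (Syt6 and Foxp2) and 4 lower (Sox5, Fezf2, Ldb2 and Tbr1). Relative to that shift the order of the members is the same, and no other scaling changed the direction of a called member.

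**Figure D1:**
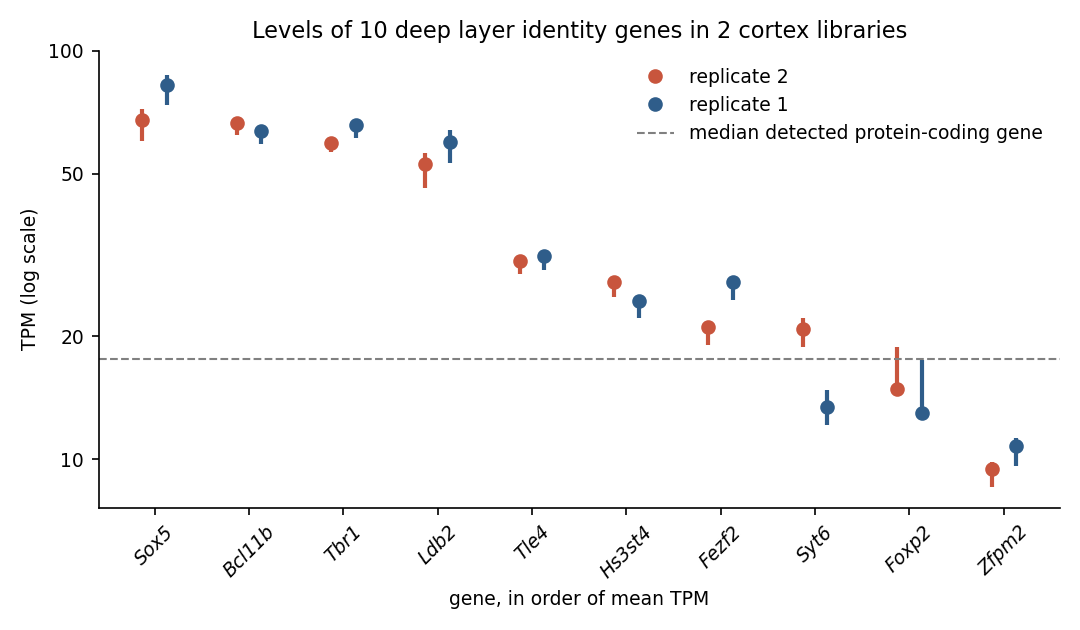
TPM (log scale) of the 10 genes in order of mean level, with replicate 2 left of replicate 1; vertical bars are the deposited TPM intervals, which belong to the posterior mean and so need not be centred on the TPM, and the dashed line is the median detected protein-coding gene at 17.62 TPM. Sox5, Hs3st4, Fezf2 and Syt6 have intervals that do not overlap between the libraries. The share of all genes with such intervals was not computed.

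Fezf2, a zinc finger repressor that instructs subcerebral identity (ENSMUSG00000021743.6, mm10 chromosome 14, 12342094 to 12348189, minus strand), had 21.08 TPM in replicate 2 and 27.13 TPM in replicate 1. It was counted 870 and 977 times, and the ratio of -0.27 (SE 0.0672) passed the exact binomial test at an adjusted p of 0.000474. Fezf2 was thus lower in replicate 2, and its deposited intervals, 19.05 to 21.8 TPM in replicate 2 and 24.51 to 27.82 TPM in replicate 1, did not overlap. How common such intervals are over all genes was not computed, here and for the genes below. Its 3 annotated transcripts are all protein coding. Fezf2-201 took 64.6% of the gene's TPM in replicate 2 and 63.7% in replicate 1.

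Bcl11b, a zinc finger factor needed for the corticospinal axons of layer 5 neurons (ENSMUSG00000048251.15, chromosome 12, 107910403 to 108003602, minus strand), stood at 66.43 TPM in replicate 2 and 63.72 TPM in replicate 1. It had the most reads of the 10 genes, 7850 in replicate 2 and 6674 in replicate 1. The ratio of 0.13 (SE 0.0240) was called higher in replicate 2 by the exact binomial test (adjusted p = 1.21e-06). The difference was small, since 41.5% of the deep protein-coding genes had a larger ratio in absolute size and the deposited intervals of the libraries overlapped. Scaling to the spike-ins turned the ratio to -0.018, with an adjusted p of 0.644 by the same test. The long form Bcl11b-201, with 2652 coding bases, held 64.1% of the gene's TPM in replicate 2 and 64.4% in replicate 1. Bcl11b-203, with 2436 coding bases, held 35.9% and 34.7%.

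Tbr1, a T-box factor that directs layer 6 corticothalamic identity (ENSMUSG00000035033.15, chromosome 2, 61802930 to 61814114, plus strand), had 59.4 TPM in replicate 2 and 65.68 TPM in replicate 1. Counts were 4398 and 4149, and the ratio of -0.02 (SE 0.0312) did not pass the exact binomial test (adjusted p = 0.72), though under spike-in scaling it was called lower at -0.17 (adjusted p = 8.14e-07). Its level depended on the quantification. The second deposited transcript table, summed per gene and called the other quantification here, gave 131.2 TPM in replicate 2 and 131.5 TPM in replicate 1. That is 2.10 times the mean of the alignment-based tables, and 6.02% of detected protein-coding genes had a larger quotient, with a median quotient of 1.48.

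Most of that gap lay in Tbr1-203, a processed transcript of 796 bases with no coding sequence. The other quantification gave Tbr1-203 53.44 TPM in replicate 2 and 49.8 TPM in replicate 1, from 380.7 and 320.6 reads, while the alignment-based table gave 0 TPM in replicate 2 and 1.91 TPM in replicate 1. These reads were 7.97% of the gene's reads in replicate 2 and 7.08% in replicate 1, but 40.7% and 37.9% of its TPM, since the transcript is short. Of the 751 distinct 31-base words in Tbr1-203, 608 are also in other Tbr1 transcripts, 13 are in transcripts of other genes and 130 are in no other annotated transcript. The bases below are shown because they are what sets Tbr1-203 apart, the part of its first exon that lies in no exon of another Tbr1 transcript and within an intron of the coding Tbr1-201. They span chr2:61806376-61806506 on the plus strand of mm10, read from the GENCODE M21 transcripts, and capitals mark a run of 23 GT repeats.
Tbr1-203: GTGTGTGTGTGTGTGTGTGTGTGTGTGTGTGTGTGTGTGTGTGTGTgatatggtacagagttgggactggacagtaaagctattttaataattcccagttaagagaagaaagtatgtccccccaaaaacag
The repeat fills 46 of these 131 bases. Which part of the transcript the 380.7 and 320.6 reads matched was not tested, since the tables give no positions.

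Sox5, an HMG-box factor that times the succession of deep layer neurons and represses Fezf2 in layer 6 and the subplate (ENSMUSG00000041540.16, chromosome 6, 143828425 to 144781977, minus strand), had the highest mean level by gene TPM. It stood at 67.72 TPM in replicate 2 and 82.67 TPM in replicate 1, with 3969 and 4466 counts. The ratio of -0.28 (SE 0.0315) was called lower in replicate 2 by the exact binomial test (adjusted p = 1.37e-16), and 10.2% of the deep protein-coding genes had a larger ratio in absolute size. The deposited intervals, 60.09 to 72.12 TPM in replicate 2 and 73.61 to 87.07 TPM in replicate 1, did not overlap.

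The place of Sox5 at the top rested on short noncoding transcripts. Sox5-208, a processed transcript of 351 bases, was given 22.74 TPM in replicate 2 and 26.25 TPM in replicate 1, which is 33.6% and 31.8% of the gene's TPM from 2.78% and 2.52% of its reads. The other quantification gave Sox5-208 no reads in either library and put Sox5-201, the protein-coding form of 7243 bases, first. Of the 321 words of 31 bases in Sox5-208, 293 are also in other Sox5 transcripts. Counting protein-coding transcripts of the alignment-based table alone, Sox5 held 30.81 TPM in replicate 2 and 35.29 TPM in replicate 1. It fell to the 4th place of the 10.

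Sox5-208 uses a shorter form of an exon that Sox5-201 continues for 105 bases. The 60 bases around the splice junction are shown in both forms, because they separate 4 transcripts with the short exon from 5 with the long one. Lower case is the end of that exon and capitals mark the start of the next exon, on the minus strand of mm10 from the GENCODE M21 transcripts. The short form spans chr6:144116625-144155126 and the long form chr6:144116625-144155021.
Sox5-208: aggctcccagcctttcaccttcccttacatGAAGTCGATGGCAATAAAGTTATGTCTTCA
Sox5-201: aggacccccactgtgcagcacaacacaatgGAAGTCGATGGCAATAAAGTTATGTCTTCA
Transcripts with the long exon took 80.7% of the Sox5 reads in replicate 2 and 85.3% in replicate 1, and those with the short exon 14.2% and 12.9%. By TPM in the alignment-based table, the short exon transcripts held 47.1% in replicate 2 and 46.0% in replicate 1, and the long exon transcripts 40.1% and 47.6%. In the other quantification the short form held 29.4% in replicate 2 and 29.3% in replicate 1, and the long form 49.2% and 52.2%. The order of the splice forms by TPM thus differed between the tables in replicate 2, while by reads the long exon led in both libraries and both tables (73.0% and 76.0% of the reads in the other quantification).

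Tle4, a Groucho family corepressor found in layer 6 corticothalamic neurons (ENSMUSG00000024642.17, chromosome 19, 14448150 to 14598051, minus strand), had the smallest spread of TPM between the libraries. It stood at 30.53 TPM in replicate 2 and 31.47 TPM in replicate 1, a coefficient of variation of 2.14%, and its ratio of 0.06 (SE 0.0416) was not called by the exact binomial test (adjusted p = 0.291). Tle4-201 carried 97.0% of the gene's TPM in replicate 2 and 93.9% in replicate 1. Tle4-202, of the same length and coding length, was at 0 in both libraries and both quantifications.

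Foxp2, a forkhead repressor of layer 6 neurons that is also known for its part in vocal learning (ENSMUSG00000029563.16, chromosome 6, 14901349 to 15441977, plus strand), had 14.87 TPM in replicate 2 and 13.02 TPM in replicate 1. Its reads differed more than its TPM, 1511 in replicate 2 and 1035 in replicate 1, and the deposited mean length of its transcripts was 5372 bases in replicate 2 and 4767 bases in replicate 1. The count ratio of 0.44 (SE 0.0582) was called higher in replicate 2 (exact binomial test, adjusted p = 1.06e-12), and 2.01% of the deep protein-coding genes had a larger ratio in absolute size. The deposited TPM intervals of the libraries overlapped. Foxp2-207 led in the alignment-based table with 7.31 TPM in replicate 2 and 6.36 TPM in replicate 1. The other full-length form, Foxp2-201 with the same 2142 coding bases, had 419.49 counts in replicate 2 and 137.76 in replicate 1, the widest gap in reads among the Foxp2 transcripts. The other quantification gave it 672.3 and 373.9. There Foxp2-201 stood above Foxp2-207 in replicate 2 (8.07 against 7.19 TPM) and below it in replicate 1 (4.92 against 5.93 TPM).

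Zfpm2, a cofactor of GATA factors also called Fog2 that marks corticothalamic neurons (ENSMUSG00000022306.9, chromosome 15, 40655035 to 41104592, plus strand), was the lowest of the 10. It had 9.46 TPM in replicate 2 and 10.79 TPM in replicate 1, and its ratio of -0.02 (SE 0.0709) was not called by the exact binomial test (adjusted p = 0.939). Its protein-coding transcripts alone stood at 8.55 TPM in replicate 2 and 8.51 TPM in replicate 1.

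Ldb2, an adaptor that joins LIM domain proteins into transcription complexes (ENSMUSG00000039706.11, chromosome 5, 44472132 to 44799680, minus strand), had 52.93 TPM in replicate 2 and 59.9 TPM in replicate 1. The ratio of -0.12 (SE 0.0479) just missed the threshold of 0.05 (exact binomial test, adjusted p = 0.0574). It passed, lower in replicate 2, under total count scaling (adjusted p = 0.0133), with 50 or more counts required (0.0473), among protein-coding genes alone (0.0175), under spike-in scaling (4.29e-07) and under scaling to 4 excitatory neuron genes (0.0342). By the same exact test it did not pass with DESeq2 size factors (adjusted p = 0.123), with genes of 1 or more counts (0.0799) or in the other quantification (0.249). Its protein-coding transcripts held 69.8% of the TPM in replicate 2 and 70.3% in replicate 1. The transcript table put Ldb2-204, a form with 987 coding bases, at 0 TPM in replicate 2 and 1.64 TPM in replicate 1, while the other quantification put it at 16.21 TPM and 21.16 TPM. Ldb2-201 led in both.

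Syt6, a synaptotagmin of layer 6 neurons whose family takes part in membrane fusion (ENSMUSG00000027849.18, chromosome 3, 103575231 to 103645569, plus strand), differed most between the libraries. It stood at 20.82 TPM in replicate 2 and 13.44 TPM in replicate 1, with 1419 and 788 counts. The ratio of 0.74 (SE 0.0641) was called higher in replicate 2 (exact binomial test, adjusted p = 6.05e-30), and only 0.314% of the deep protein-coding genes had a larger one in absolute size. The deposited intervals, 18.88 to 22.2 TPM in replicate 2 and 12.16 to 14.78 TPM in replicate 1, did not overlap. Syt6 was the one member with a large share of transcripts classed as targets of nonsense-mediated decay, the pathway that removes RNAs with early stop codons. These transcripts had 738.1 reads in replicate 2 and 344.4 in replicate 1, a ratio of 0.99 (SE 0.0941), while the protein-coding transcripts had 680.9 and 443.6, a ratio of 0.51 (SE 0.0880). Both classes were higher in replicate 2. The decay class held 51.9% of the TPM in replicate 2 and 49.4% in replicate 1 in the alignment-based table, against 43.5% and 25.7% in the other quantification.

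Hs3st4, an enzyme that adds sulfate to heparan sulfate chains and is enriched in layer 6 (ENSMUSG00000078591.1, chromosome 7, 123982869 to 124398989, plus strand), has 1 annotated transcript. It had 27.17 TPM in replicate 2 and 24.44 TPM in replicate 1, from 1617 and 1286 reads. The ratio of 0.23 (SE 0.0539) was called higher in replicate 2 (exact binomial test, adjusted p = 0.000268), and 16.8% of the deep protein-coding genes had a larger one in absolute size. Under spike-in scaling the ratio was 0.08 and was not called (adjusted p = 0.289).

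**Figure D2:**
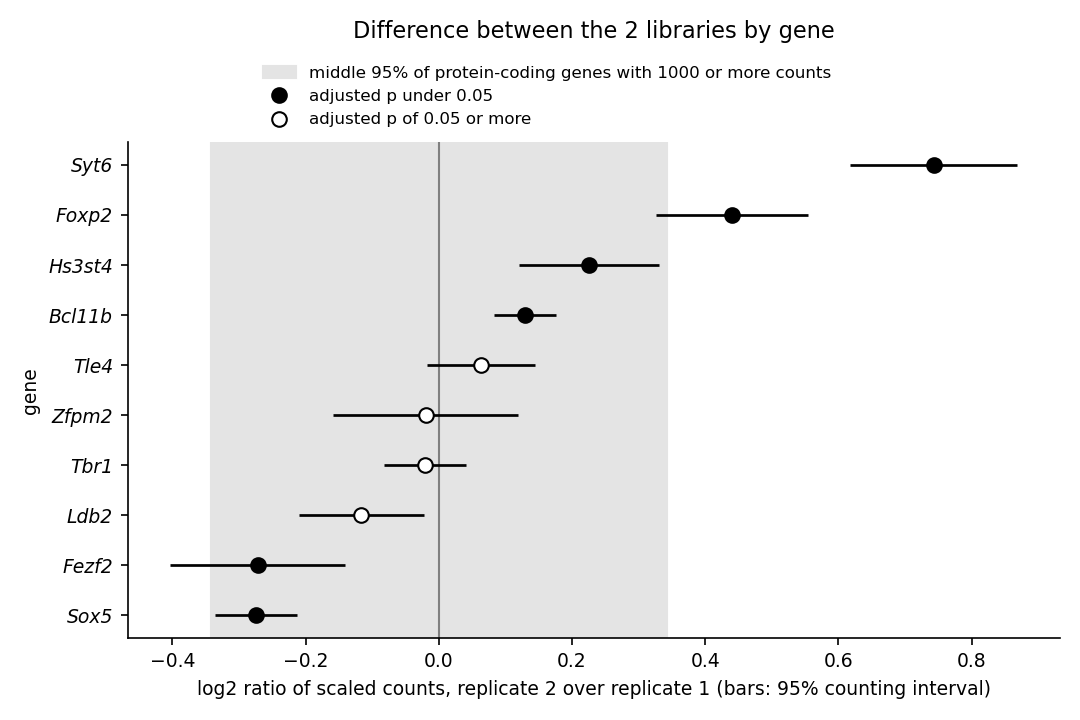
Log2 ratio of TMM-scaled counts, replicate 2 over replicate 1, for each gene, with 95% counting intervals; filled points passed the exact binomial test and the grey band holds the middle 95% of 7956 deep protein-coding genes, -0.34 to 0.34. Syt6 at 0.74 and Foxp2 at 0.44 lie outside the band and the other 8 genes lie inside it.

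Most steps in the order of levels were within the spread of the libraries. A step between neighbours counted as separated where the mean log2 quotient exceeded 2 SD and had the same sign in both libraries. Only 2 of the 9 steps did, Tbr1 over Ldb2 by 0.15 ± 0.02 and Ldb2 over Tle4 by 0.86 ± 0.10 on the log2 scale (SD, n = 2). The second of these divides the list into 4 genes with means of 56.4 to 75.2 TPM and 6 genes with means of 10.1 to 31 TPM. Over protein-coding transcripts of the alignment-based table that division is lost. Sox5 averaged 33.05 TPM there and was not separated from Tle4 (0.16 ± 0.14 on the log2 scale). That table gave coding transcripts 45.5% of the Sox5 TPM in replicate 2 and 42.7% in replicate 1, against 70.9% and 61.4% in the other quantification. The loss holds for the alignment-based table only, since this step was not computed from the coding transcripts of the other quantification. Within the upper 4, Bcl11b was above Tbr1 in replicate 2 and below it in replicate 1, and Hs3st4 and Fezf2 changed places in the same way among the lower 6. The other quantification separated 4 steps and put Tbr1 first, then Bcl11b and then Sox5. Counting protein-coding transcripts of the alignment-based table alone put Bcl11b first by mean level and Syt6, at 10.03 TPM in replicate 2 and 6.8 TPM in replicate 1, last. Neither was separated from its neighbour, with log2 quotients of 0.10 ± 0.12 for Bcl11b over Tbr1 and 0.05 ± 0.39 for Zfpm2 over Syt6. In replicate 2 Syt6 stood above Zfpm2.

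**Figure D3:**
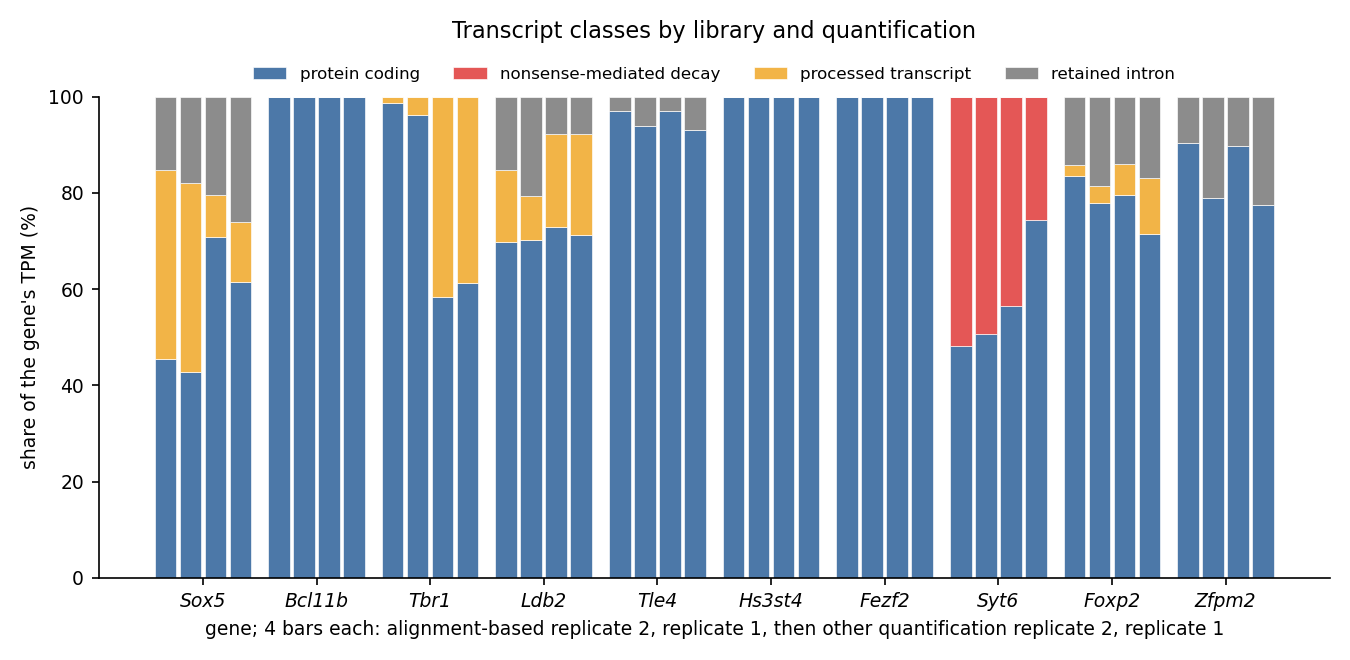
Share of each gene's TPM (%) in 4 annotated transcript classes; the 4 bars of a gene are replicate 2 and replicate 1 of the alignment-based table, then replicate 2 and replicate 1 of the other quantification. Bcl11b, Hs3st4 and Fezf2 are wholly protein coding, the processed transcript class of Tbr1 is 1.31% and 3.82% in the first pair of bars against 41.6% and 38.8% in the second, and that of Sox5 is 39.3% in both of the first pair against 8.59% and 12.5%.

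The annotation lists 68 transcripts for the 10 genes, and 8 genes had the same leading transcript in both quantifications. Sox5 and Syt6 did not. For Syt6, the alignment-based table put the decay-class transcript Syt6-206 first (8.03 TPM in replicate 2 and 3.59 TPM in replicate 1), and the other quantification put the protein-coding Syt6-201 first, by the mean of 7.45 TPM in replicate 2 and 5.84 TPM in replicate 1. In replicate 2 alone, the other quantification gave Syt6-206 8.39 TPM, above Syt6-201. It also put Foxp2-201 above Foxp2-207 in that library, so there Syt6 shared its leading transcript and Foxp2 did not.

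Transcripts that keep an intron are annotated for 5 of the genes, and their reads in the alignment-based table gave ratios of -1.24 (SE 0.291) for Zfpm2, -0.99 (SE 0.383) for Tle4, -0.61 (SE 0.0946) for Sox5, -0.53 (SE 0.208) for Ldb2 and -0.16 (SE 0.229) for Foxp2. The last lies within 1 SE of 0. In the other quantification the ratios were -1.18 (SE 0.280) for Zfpm2, -1.21 (SE 0.393) for Tle4 and -0.69 (SE 0.0894) for Sox5, but -0.07 (SE 0.387) for Ldb2 and -0.05 (SE 0.226) for Foxp2, both within 1 SE of 0. The protein-coding transcripts of the same genes had ratios of 0.07, 0.08, -0.22, -0.12 and 0.50. Over all genes, 59.2% of 15712 retained intron transcripts with 10 or more counts were lower in replicate 2, with a median ratio of -0.13. No test of the class was run.

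Annotated genes that lie over the members on the same strand were mostly lower in replicate 2. Of the 10 genes, 6 overlap 27 other annotated genes, 18 of them on the same strand. Of the 16 same-strand genes with enough counts to test, 9 were called lower in replicate 2 by the exact binomial test and 0 higher, with a median ratio of -0.93. Only Gm43066, inside Syt6, had a ratio above 0 among the 16, at 0.11 on 14 reads in replicate 2 and 12 in replicate 1. Among all 1911 genes classed as sense intronic or TEC, a class of transcripts still to be experimentally checked, 24.2% were called lower and the median ratio was -0.50. The locus of Ldb2 held 9 of these same-strand genes, whose reads together numbered 424 in replicate 2 and 730 in replicate 1. All 9 had negative ratios, -0.71 to -1.28, and 6 were called. Gm43508, the most counted, had 104 reads in replicate 2 and 175 in replicate 1. Inside Sox5, Gm44068 had 35 reads in replicate 2 and 70 in replicate 1, and Sox5it had 1 and 13. The 5 antisense genes of Sox5, Sox5os1 to Sox5os5, had 0 reads in both libraries. Reads of overlapping genes can be split by the authors' counting, and strand use in counting is not given in the sources used here, so these small counts are uncertain. The part that unspliced RNA has in the level of Ldb2 or Sox5 was not tested.

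Every member was set beside its paralogues, the genes of the same family, in 26 pairs. A pair was called where log2 of (TPM + 0.1) of the member over the paralogue had the same sign in both libraries and its mean exceeded 2 SD. The member was higher in 14 pairs, the paralogue in 9, and 3 were not called. In 4 of the 10 families the member was the highest gene by mean level.

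Those 4 were Fezf2, Tbr1, Sox5 and Zfpm2. Fezf1, the close relative of Fezf2, had 13 reads in replicate 2 and 0 in replicate 1, where a count of 0 allows up to 3 counts, so that Fezf2 was the only gene of this pair that reached 1 TPM. Tbr1 stood above Eomes, a T-box factor of intermediate progenitors and bulb neurons, which had 6.19 TPM in replicate 2 and 1.62 TPM in replicate 1. Sox5 exceeded its partner Sox6 by 1.43 ± 0.16 (log2) and Sox13 by 3.86 ± 0.22, with its noncoding transcripts counted in. In the alignment-based table, the protein-coding transcripts of Sox5 alone averaged 33.05 TPM, against 27.66 TPM for all transcripts of Sox6. Zfpm1 had 6.94 TPM in replicate 2 and 4.3 TPM in replicate 1, and the Zfpm2 to Zfpm1 difference of 0.87 ± 0.61 was not called.

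In the other families a relative stood higher. Bcl11a, which acts in upper and deep layers, had 104 TPM in replicate 2 and 110.1 TPM in replicate 1, and the log2 quotient of Bcl11b over Bcl11a was -0.72 ± 0.10. Foxp1 had 128 TPM in replicate 2 and 123.5 TPM in replicate 1, and Foxp2 lay below it by a log2 quotient of -3.17 ± 0.10 and below Foxp4 by -1.59 ± 0.01. Aes, a short Groucho relative, had 248.2 TPM and 236.9 TPM, and Tle3 had 56.15 TPM and 56.13 TPM, both above Tle4. Tle1, at 25.41 TPM in replicate 2 and 29.65 TPM in replicate 1, was not separated from Tle4. Tle2 and Tle6 lay below Tle4 (0.88 ± 0.01 and 4.3 ± 0.6), and Foxp3 lay below Foxp2 (5.61 ± 0.32). Ldb1 exceeded Ldb2 (log2 of Ldb2 over Ldb1, -0.46 ± 0.15). Syt5 had 105.3 TPM in replicate 2 and 102.4 TPM in replicate 1 and lay above Syt6 (-2.63 ± 0.42), as did Syt3 (-0.55 ± 0.27), while Syt10 lay below it (1.78 ± 0.24). Syt9 was not separated from Syt6 (0.82 ± 0.47). Hs3st2 was above Hs3st4 (-0.27 ± 0.09), and Hs3st1 differed from it by 0.04 ± 0.01, which turned to -0.19 in the other quantification. Hs3st5 and Hs3st3b1 lay below Hs3st4 (1.35 ± 0.11 and 4.63 ± 0.22). Hs3st3a1 and Hs3st6 stayed under 1 TPM in both libraries.

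**Figure D4:**
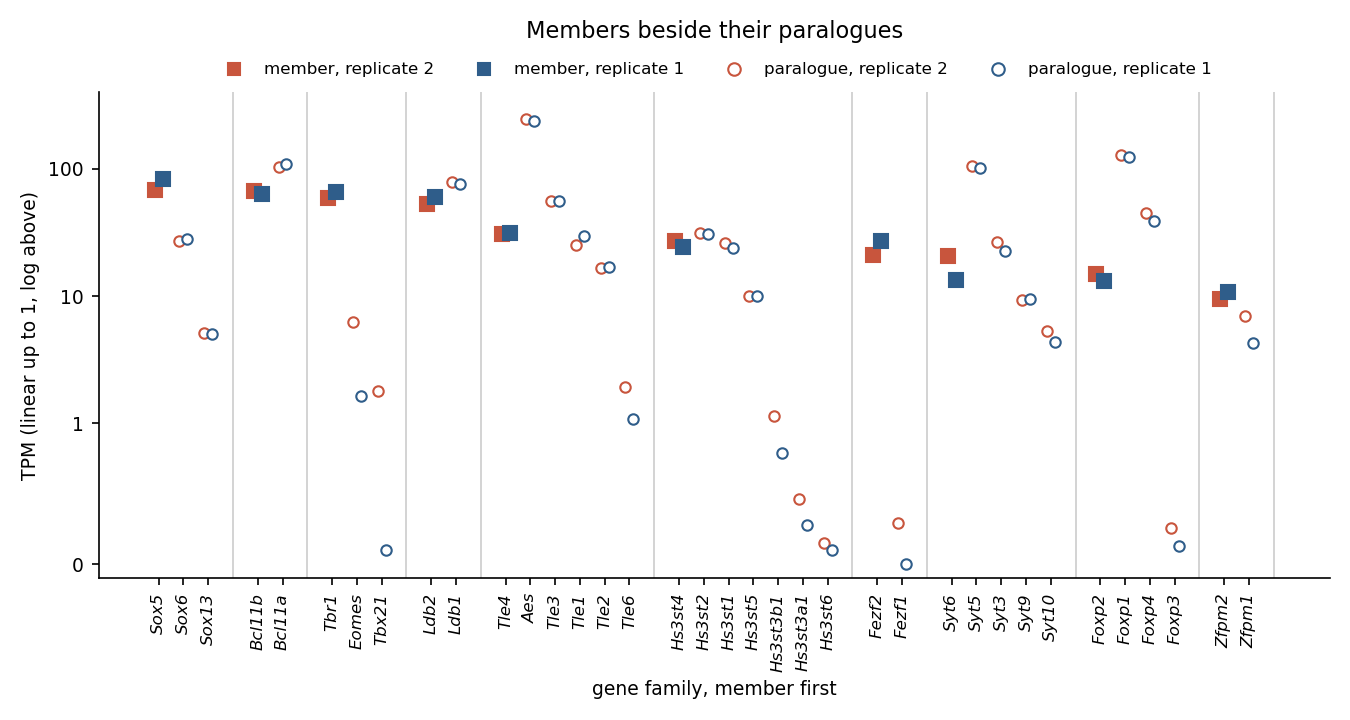
TPM of each member (squares) and its paralogues (open circles) in replicate 2, left, and replicate 1, right, by family; the axis is linear up to 1 TPM and logarithmic above. Sox5, Tbr1, Fezf2 and Zfpm2 lead their families, and 6 paralogues fall under 1 TPM in at least 1 library.

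Identity genes were also compared with each other within each library, by the rule used for paralogues. Fezf2 lay below Tbr1, which represses it (log2 of Fezf2 over Tbr1, -1.38 ± 0.15, SD, n = 2), and below its downstream factor Bcl11b (log2 of Bcl11b over Fezf2, 1.44 ± 0.30). Foxp2 stood below Tle4 (-1.15 ± 0.17), and Sox5 below the upper layer factor Cux2 (-0.48 ± 0.06). Bcl11b and Tbr1 were not separated (0.06 ± 0.14), and in the other quantification Bcl11b lay below Tbr1 by -0.48. These are levels in mixed tissue and do not show which cells held the RNA.

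The partner list holds 16 genes whose proteins are known to work with or beside those of the 10 genes. All 16 were detected, with a median of 83.2 TPM, and the exact binomial test called 6 higher and 7 lower in replicate 2, or 0 higher and 8 lower under spike-in scaling. Ssbp2, which binds LDB proteins, had 142.5 TPM in replicate 2 and 166.1 TPM in replicate 1. Lmo4, a LIM-only protein that binds LDB adaptors, had 157.3 TPM and 146.6 TPM, and Lmo3 had 132.5 TPM and 123.1 TPM. Hdac1, a histone deacetylase recruited by BCL11 and Groucho proteins, was the lowest, at 15.97 TPM in replicate 2 and 21.75 TPM in replicate 1.

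Further genes of the same layers were compared to see how the 10 genes sit among them. Of 13 layer 5 subcerebral genes, 2 were called higher and 3 lower in replicate 2, with a median ratio of 0.01 and a median level of 30.1 TPM. Under spike-in scaling the medians of this list and of the layer 6 list turned to -0.14 and -0.12, close to the shift of all genes. Pcp4, a calmodulin-binding protein, led by mean level with 99.91 TPM in replicate 2 and 75.36 TPM in replicate 1 and was called higher, though in replicate 1 Bhlhe22 stood above it at 89.18 TPM. Opn3 had the lowest mean, with 2.89 TPM in replicate 2 and 3.87 TPM in replicate 1. Of 7 layer 6 corticothalamic genes, 2 were called higher and 1 lower, with a median ratio of 0.03. Ntsr1, the neurotensin receptor that marks corticothalamic neurons, had 24.69 TPM in replicate 2 and 27.24 TPM in replicate 1 and was not called (exact binomial test, adjusted p = 0.302). Rprm led this list with 90.55 TPM in replicate 2 and 87.52 TPM in replicate 1. Of 7 subplate genes, 3 were called higher and 1 lower, with a median ratio of 0.21. Nr4a2, a nuclear receptor of subplate and deep neurons, was the one called lower (29.09 TPM in replicate 2 and 38.97 TPM in replicate 1), and Cplx3, a complexin of the subplate, was called higher (5.09 TPM and 2.8 TPM). Of 11 upper layer and callosal genes, 3 were called higher and 6 lower, with a median ratio of -0.13, and spike-in scaling called 0 higher and 10 lower, with a median of -0.27. Cux2 was among the lower ones under TMM, with a ratio of -0.13 (SE 0.0250), as was Rorb at -0.23 (SE 0.0280). Those called higher were Cux1 at 0.14 (SE 0.0251), Plxnd1 at 0.09 (SE 0.0225) and Mef2c at 0.03 (SE 0.0102).

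Marker lists of striatal neurons, interneurons and olfactory bulb neurons had higher median ratios than the deep layer genes, under spike-in scaling too, where the medians were 0.65, 0.48 and 1.95. All 12 striatal neuron markers were detected, and their summed level was 331.3 TPM in replicate 2 and 244.9 TPM in replicate 1. The exact binomial test called 11 of them higher in replicate 2, with a median ratio of 0.80, and Pde10a was not called. All 12 interneuron markers were detected, summing to 529.6 TPM in replicate 2 and 419.8 TPM in replicate 1, with 10 called higher, Maf called lower and Lhx6 not called. The 5 measured output neuron markers of the olfactory bulb summed to 62.85 TPM in replicate 2 and 29.96 TPM in replicate 1, all 5 called higher. Slc17a6, which is also on the thalamus list, made up 22.88 TPM and 21.97 TPM of these sums. Spike-in scaling called 9 striatal markers higher and 1 lower, 8 interneuron markers higher and 1 lower, and 4 bulb markers higher and 0 lower. Among the 5 bulb markers Tbx21, which defines mitral and tufted cells, had 1.8 TPM in replicate 2 and 0.1 TPM in replicate 1, on 83 and 4 reads. Bcl11b and Foxp2, which striatal neurons share, were both called higher in that library, Bcl11b not under spike-in scaling. Tbr1, which bulb output neurons share, was not called. The part of these cells in the levels of Bcl11b, Foxp2 and Syt6 was not tested.

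Lists of other cells that share a member had medians nearer 0 than those 3 lists. The 8 thalamus markers summed to 90.42 TPM in replicate 2 and 79.46 TPM in replicate 1, with 3 called higher and 1 lower. Calb2, at 29.89 TPM in replicate 2 and 12.88 TPM in replicate 1, set the direction of that sum, and the other 7 markers summed to 60.53 TPM in replicate 2 and 66.58 TPM in replicate 1. The thalamic factor Gbx2 had 13 and 5 reads. The 7 oligodendrocyte precursor markers, set beside Sox5, summed to 175.8 TPM in replicate 2 and 202.2 TPM in replicate 1, with 2 called higher and 4 lower and a median ratio of -0.21. The 7 Cajal-Retzius markers, set beside Tbr1, summed to 63.42 TPM in replicate 2 and 41.87 TPM in replicate 1. Calb2 is on this list too, and the other 6 summed to 33.53 TPM in replicate 2 and 28.99 TPM in replicate 1. Of these 7, Calb2 and Cacna2d2 were called higher, and the defining marker Trp73 had 1.65 TPM in replicate 2 and 1.85 TPM in replicate 1. No marker gene of these lists was at 0 reads in either library. The part of these cells in the levels of Sox5 and Tbr1 was not tested. Of 5 pan excitatory genes, Tbr1 among them, the exact binomial test called 2 higher and 1 lower in replicate 2, with a median ratio of -0.02. Under spike-in scaling it called 1 higher and 4 lower. Slc17a7, the vesicular glutamate transporter of cortical and other excitatory neurons, had 159.2 TPM in replicate 2 and 133.4 TPM in replicate 1. Neurod6 was the one called lower under TMM, with 97.85 TPM in replicate 2 and 124.3 TPM in replicate 1.

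**Figure D5:**
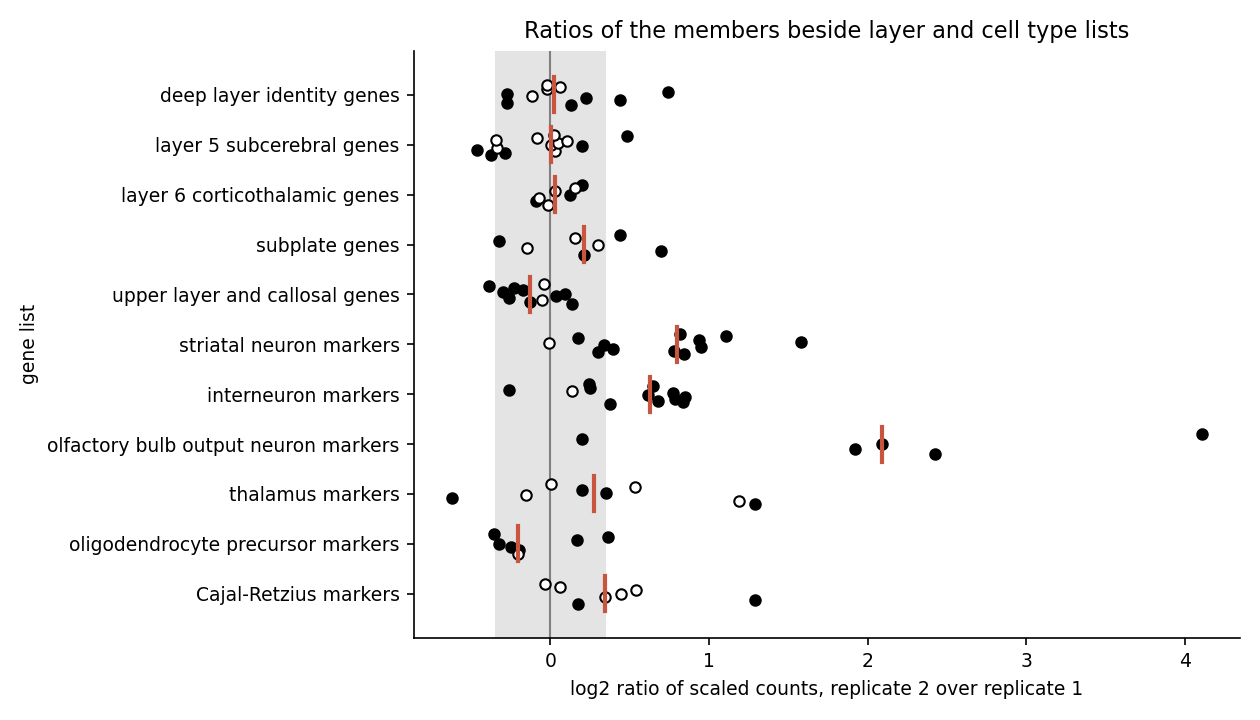
Log2 ratio of replicate 2 over replicate 1 for the 10 deep layer genes (top) and genes of layer and cell type lists; filled points passed the exact binomial test, red ticks are medians and the grey band is the middle 95% of deep protein-coding genes. The medians of the deep layer, layer 5 and layer 6 lists lie at 0.02, 0.01 and 0.03, and those of the striatal, interneuron and olfactory bulb lists at 0.80, 0.63 and 2.09.

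RefSeq promoter entries for the GRCm38.p6 build, the base assembly of mm10, matched 7 of the 10 genes; Foxp2, Ldb2 and Zfpm2 had no entry. The 250 bases before the start of each were searched on both strands for TATAAA, found in 12.4% of all 32851 promoters, for the T-box motif GGTGTGA, found in 3.33%, and for CCAAT, found in 33.8%. None of the 7 held TATAAA or GGTGTGA, and Tle4 alone held CCAAT, at 2 places. The number of CG pairs ran from 3 for Sox5 to 43 for Hs3st4, against a median of 6 over all promoters. Entries start 188 bases from the start of Bcl11b-201, 132 from Tle4-201, 94 from Fezf2-201, 41 from Hs3st4-201, 1 from Syt6-201 and 0 from Tbr1-201. The Bcl11b window, 108003415 to 108003664 on the minus strand, thus lies partly inside the annotated gene, which ends at 108003602. The Sox5 entry starts 262374 bases from the start of Sox5-201, so it lies far from the start of that transcript. Tbr1 and Hs3st4 are shown as the ends of the range among the other 6 genes, with CG pairs in capitals. The Tbr1 window is chr2:61804203-61804452 on the plus strand, with 5 CG pairs, and the Hs3st4 window is chr7:123982578-123982827 on the plus strand, with 43, more than in 99.3% of all promoters.
Tbr1: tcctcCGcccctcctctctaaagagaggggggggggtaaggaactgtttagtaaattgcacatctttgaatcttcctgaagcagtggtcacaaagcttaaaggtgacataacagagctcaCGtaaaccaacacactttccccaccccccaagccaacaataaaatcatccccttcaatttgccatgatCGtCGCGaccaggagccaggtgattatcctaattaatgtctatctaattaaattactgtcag
Hs3st4: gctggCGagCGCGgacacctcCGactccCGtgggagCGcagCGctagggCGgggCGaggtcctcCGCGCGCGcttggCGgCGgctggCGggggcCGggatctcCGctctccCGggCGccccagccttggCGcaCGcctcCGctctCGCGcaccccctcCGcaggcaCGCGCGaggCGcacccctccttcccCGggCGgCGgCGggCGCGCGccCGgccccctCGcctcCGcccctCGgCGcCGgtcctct
The absence of these letters in the windows says nothing of which factors bind there.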

How the data were processed

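The 2 total RNA libraries were treated as 1 group. The authors deposited, per the file headers, a gene table and a transcript table with expected counts, TPM, posterior mean TPM with interval bounds and each transcript's percent of its gene, and a second transcript table with estimated counts and TPM from another quantification. Deposited notes name mm10 and GENCODE M21. The aligner, the quantifiers with their versions, and strand use in counting: not given in the sources used here. Whether RNA of the CAST allele was counted in full was not tested. No column of another sample was used. Spike-in and unnamed entries, 0.351% and 0.323% plus 6.78e-06% and 2.23e-05% of the counts in replicate 2 and replicate 1, stayed out of library sizes and tests.

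The members and lists were chosen with earlier results of these data known. The text names all 10 members, the genes of the pairs, and up to 4 of the highest and the lowest gene of a list, and others whose values or role bear on a member were named after their values were seen. Expected counts were rounded and tested with a two-sided exact binomial test (scipy 1.17.1) on TMM-scaled library sizes (edgeR 4.0.16, R 4.3.3), adjusted by Benjamini-Hochberg over genes with 10 or more counts, with a prior count of 0.5 in ratios. The SEs cover counting error only. The test was tried on simulated data. Level and pair comparisons carry no p. Alternatives were DESeq2 1.42.0 size factors, total count, spike-in and excitatory gene scaling, other count filters, pseudocounts, quantifications and TPM estimates. Words of 31 bases were matched over all M21 transcripts. One gene of the pairs and lists is not reported here by name or value, though it stays in the counts over its lists.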

Additional observations from a re-analysis of the deposited data

How the results depend on the processing

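No paired analysis was possible because the data hold 1 group. The count of members detected was 10 under all alternatives run, and 8 leading transcripts were shared. The member was higher in 14 paralogue pairs by the TPM used in the report, and in 13 by the other quantification and by posterior mean TPM. The median over the members of their mean levels, 28.4 TPM, was 40.2 TPM in the other quantification, 27.41 TPM by posterior mean, 53.54 TPM over protein-coding genes and 27.7 TPM over protein-coding transcripts, and 28.85 to 29.3 TPM when either replicate was left out (SD 0.318 between those 2 medians). The other quantification separated 4 neighbours in level in place of 2. Scaling to the spike-ins moved the median of all genes to -0.15 and that of the members to -0.13. It called 2 members higher and 4 lower, beside 33.7% of all genes tested, and turned Bcl11b to -0.018. In the other quantification, Hs3st4 over Hs3st1 turned to -0.19 and Bcl11b over Tbr1 to -0.48. By posterior mean TPM, Hs3st4 over Hs3st1 was weaker, at 0.018 ± 0.009. The causes were not tested. Of the 10 members' levels, 9 moved by more than 1 SD in the other quantification and 6 with protein-coding transcripts of the alignment-based table alone. With 2 libraries no test across animals can be run, and the exact binomial test says nothing of how far animals differ in general. Scaling to excitatory genes and counting protein-coding transcripts alone were chosen after seeing the data, as were the retained intron ratios of the other quantification and the marker sums without Calb2.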
